A study of Mus musculus with 4 samples.

Results

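The genes described here are 10 genes for adhesion proteins known from synapses, measured in the mesenchyme of mouse molar tooth germs with and without Msx1. They are Lrrtm1, Ncam1, Ncam2, Nxph1, Cntn3, Cntn6, Lrrc4c, Flrt2, Odz2 and Cbln2, that is, 10 of the 22072 gene names in the deposited tables, and all 10 were among the 10535 genes kept for analysis. They were chosen by name after the mutant to control differences of these libraries were known. Their genotype differences are therefore a description and carry no test. Ncam1 did not bear out the description of the set as higher without Msx1.

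The groups were Msx1-/- upper molars, Msx1+/- upper molars, Msx1-/- lower molars and Msx1+/- lower molars, all from mouse embryos at embryonic day 14 on a mixed background. Heterozygotes served as the controls, so every library carried at least 1 mutant Msx1 allele, and the labels do not name that allele. Laser capture took the mesenchyme out of frozen sections of the head, tissue from 3 pairs of mutant and control embryos was pooled, and each group was sequenced as 1 library. No value below has a replicate, and the spread between animals is unknown. Msx1, a homeobox gene that the dental mesenchyme needs to carry tooth development past the bud stage, was listed at 126 FPKM in Msx1-/- and 170 FPKM in Msx1+/- upper molars and at 85.9 FPKM in Msx1-/- and 184 FPKM in Msx1+/- lower molars. The tables do not resolve exons, and with the allele unnamed these levels are no check of the genotype.

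Adhesion proteins of synapses span the cleft between nerve cells and hold the sending and the receiving side together. Many of them work as pairs across families, such as leucine-rich repeat proteins or cerebellins with neurexins, netrin-G ligands with netrin-G proteins, and teneurins or FLRT proteins with latrophilins. Immunoglobulin-type proteins such as NCAM bind like to like and through other partners. Several of these genes are also active outside the nervous system in the embryo, where they take part in cell sorting, cell migration and axon guidance. In a bulk sample, a lower level can mean fewer cells of a type or less RNA per cell, and these cannot be told apart.

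RefSeq promoter sequences of build GRCm38.p6, which run from 250 bases before to 50 bases after a gene's start, were found for 8 of the 10 genes. The 4 shown are those for which the RefSeq gene and the deposited locus had nearly the same span (0.000708% to 0.819% apart). They are given 5′ to 3′ on the strand of the gene to show that the promoters of these genes are not of one kind. Capitals mark CG dinucleotides and TAATTG, a core sequence that Msx1 is known to bind in vitro.
Ncam2, chr16:81200447-81200746, plus strand: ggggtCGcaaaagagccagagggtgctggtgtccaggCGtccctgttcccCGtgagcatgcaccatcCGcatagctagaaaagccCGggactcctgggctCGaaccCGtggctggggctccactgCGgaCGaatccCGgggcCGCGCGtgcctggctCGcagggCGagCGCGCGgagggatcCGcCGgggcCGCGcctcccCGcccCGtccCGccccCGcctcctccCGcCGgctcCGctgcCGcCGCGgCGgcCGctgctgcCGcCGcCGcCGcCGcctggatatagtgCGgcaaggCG
Nxph1, chr6:8949769-8950068, plus strand: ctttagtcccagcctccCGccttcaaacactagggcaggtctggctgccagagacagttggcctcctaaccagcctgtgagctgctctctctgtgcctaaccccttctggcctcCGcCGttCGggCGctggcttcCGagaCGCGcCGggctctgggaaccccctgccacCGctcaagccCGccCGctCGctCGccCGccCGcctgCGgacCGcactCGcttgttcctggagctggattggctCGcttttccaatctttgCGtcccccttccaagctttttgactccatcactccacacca
Flrt2, chr12:95691976-95692275, plus strand: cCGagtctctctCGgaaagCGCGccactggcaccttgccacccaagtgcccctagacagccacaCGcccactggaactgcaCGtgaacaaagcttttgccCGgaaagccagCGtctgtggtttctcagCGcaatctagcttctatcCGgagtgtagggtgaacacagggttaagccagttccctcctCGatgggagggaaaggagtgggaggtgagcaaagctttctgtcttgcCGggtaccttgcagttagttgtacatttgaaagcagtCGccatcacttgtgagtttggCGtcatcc
Cntn6, chr6:104492794-104493093, plus strand: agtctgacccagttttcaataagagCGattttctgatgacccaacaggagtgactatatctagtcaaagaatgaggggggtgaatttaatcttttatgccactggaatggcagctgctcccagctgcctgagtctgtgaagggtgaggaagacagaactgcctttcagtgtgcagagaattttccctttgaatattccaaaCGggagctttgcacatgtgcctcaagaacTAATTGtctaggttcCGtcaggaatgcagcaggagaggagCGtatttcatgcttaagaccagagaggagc

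The promoters of Ncam2 and Nxph1 held 41 and 21 CG dinucleotides, above the upper quartile of 20 over the 32851 RefSeq mouse promoters in hand, and that of Flrt2 held 14. The promoter of Cntn6 held 4, below the median of 7 over all promoters. Of the promoters not shown, those of Lrrtm1, Lrrc4c, Odz2 and Cntn3 held 7, 6, 2 and 0. For these genes the RefSeq and deposited spans were 31.2% to 996% apart, so the start used may not be that of the measured transcript. TAATTG was searched on both strands and was found in 1 of the 8 promoters, that of Cntn6, where it starts 20 bases before the gene's start. It is present in 8% of all promoters. Neither the Egr site GCGTGGGCG nor TTCAGCACC, part of the site of the neuronal gene repressor REST, was found in the 8 promoters, and they are present in 0.612% and 0.371% of all promoters. A match or its absence in these 300 bases says nothing of binding.

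Levels are given as FPKM, fragments per kilobase scaled to the library's mapped fragments, which allows levels of different genes to be compared. Differences are Msx1-/- minus Msx1+/- within a jaw on the log2(FPKM + 1) scale. A gene is called higher or lower where that difference is at least 1. In upper molars 9 of the 10 genes were higher in Msx1-/-, where 1.07% of all genes kept were. In lower molars 8 of the 10 were higher, against 0.864% of all genes. The 8 were higher in both jaws, as were 0.399% of all genes. These shares show how rare the choice made the members among all genes and say no more, since the genes were chosen on this contrast.

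**Figure D1:**
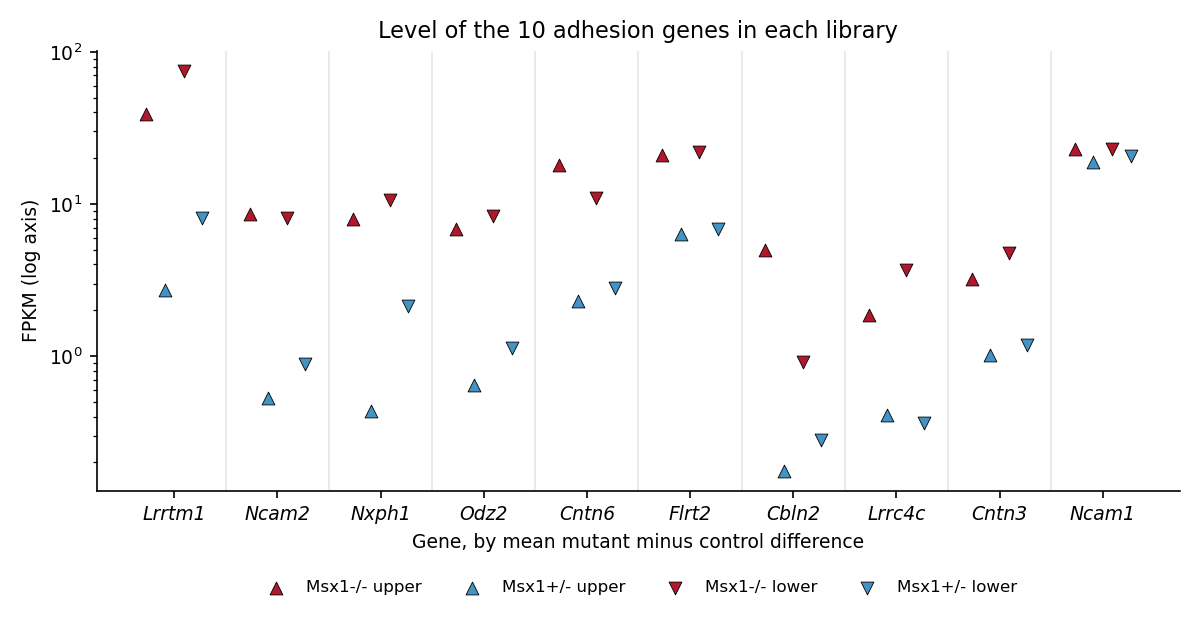
FPKM (log axis) of the 10 genes in each library, ordered by their mean genotype difference; red marks Msx1-/- and blue Msx1+/- libraries, upward triangles upper and downward triangles lower molars. Both red points stand above both blue points for every gene, by a wide margin for Lrrtm1 (38.8 and 75.1 against 2.71 and 8.06 FPKM) and by a narrow one for Ncam1 (23.1 and 23.1 against 18.9 and 20.5 FPKM).

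Lrrtm1 encodes a leucine-rich repeat protein of the postsynaptic membrane that binds neurexins. In upper molars it was at 38.8 FPKM in Msx1-/- and 2.71 FPKM in Msx1+/-, a 14.3-fold difference in FPKM. In lower molars it was at 75.1 FPKM in Msx1-/- and 8.06 FPKM in Msx1+/-, a 9.32-fold difference. The log2 differences were 3.42 and 3.07, and the mean of both jaws ranked 1 among the 10535 genes kept. The Msx1-/- libraries thus lay far above the Msx1+/- libraries in either jaw. With 97.7% of the genes kept below it in Msx1-/- lower molars, Lrrtm1 was among the more abundant transcripts there. Lrrtm1 (chromosome 6, 77192711 to 77195511, mm9) lies within the locus of Ctnna2, whose summed level was 0.235 and 0.386 FPKM in Msx1-/- and Msx1+/- upper molars and 0.555 and 0.459 FPKM in Msx1-/- and Msx1+/- lower molars.

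Lrrc4c encodes NGL-1, a leucine-rich repeat protein that binds netrin-G1. It was at 1.86 FPKM in Msx1-/- and 0.409 FPKM in Msx1+/- upper molars, and at 3.66 FPKM in Msx1-/- and 0.362 FPKM in Msx1+/- lower molars. The differences were 1.02 and 1.78, so in upper molars Lrrc4c lay just past the threshold. Among the 8 genes higher in both jaws it had the lowest level in each library, and its Msx1+/- values rest on a mean read depth of 0.428 (upper) and 0.294 (lower) per transcript base. Flrt2, whose protein carries leucine-rich repeats and a fibronectin domain and binds Unc5 receptors and latrophilins, was well above 1 FPKM in the Msx1+/- libraries too. It was at 21.1 FPKM in Msx1-/- and 6.33 FPKM in Msx1+/- upper molars and at 22.1 FPKM in Msx1-/- and 6.80 FPKM in Msx1+/- lower molars. Its differences of 1.59 and 1.57 were nearly equal in the jaws.

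Odz2 encodes teneurin-2, a large transmembrane protein that binds latrophilins. It was at 6.79 FPKM in Msx1-/- and 0.644 FPKM in Msx1+/- upper molars, a 10.5-fold difference. In lower molars it was at 8.33 FPKM in Msx1-/- and 1.12 FPKM in Msx1+/-, a 7.41-fold difference. On the log2 scale these are 2.25 and 2.13, and no Msx1-/- value came near an Msx1+/- value. Odz2 (chromosome 11, 35820171 to 36757745) has the widest locus of the 10 in the deposited tables.

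Nxph1 and Cbln2 encode secreted ligands. Nxph1, which encodes neurexophilin 1 and binds alpha-neurexins, was at 7.99 FPKM in Msx1-/- and 0.436 FPKM in Msx1+/- upper molars. In lower molars it was at 10.6 FPKM in Msx1-/- and 2.13 FPKM in Msx1+/-. The fold differences were 18.3 and 4.98, and the log2 differences 2.65 and 1.89. The jaws differed here mainly through the Msx1+/- libraries. Cbln2, a cerebellin that links neurexins to delta-type glutamate receptors, was at 4.98 FPKM in Msx1-/- and 0.177 FPKM in Msx1+/- upper molars. In lower molars it was at 0.910 FPKM in Msx1-/- and 0.282 FPKM in Msx1+/-, which left it under 1 FPKM in 3 of the 4 libraries. Its differences were 2.35 and 0.58, so it was higher in upper molars alone, and 1 library carried it past the filter on low levels. The Msx1+/- values of Cbln2 rest on 407 (upper) and 505 (lower) aligned bases over the whole transcript.

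Cntn6 and Cntn3 encode contactins, immunoglobulin-type proteins held to the membrane by a lipid anchor. Cntn6 was at 17.996 FPKM in Msx1-/- and 2.30 FPKM in Msx1+/- upper molars and at 10.9 FPKM in Msx1-/- and 2.80 FPKM in Msx1+/- lower molars. The Msx1+/- libraries were close to each other, while the Msx1-/- upper library was the higher of the mutant pair. The differences were 2.52 and 1.65. Cntn3 was at 3.22 FPKM in Msx1-/- and 1.01 FPKM in Msx1+/- upper molars and at 4.77 FPKM in Msx1-/- and 1.19 FPKM in Msx1+/- lower molars. Its differences of 1.07 and 1.396 place it, like Lrrc4c, just past the threshold in upper molars.

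Ncam2 was among the genes that differed most and Ncam1 was not. Both encode immunoglobulin-type neural cell adhesion molecules, and NCAM1 carries polysialic acid, a sugar polymer that loosens adhesion. Ncam2 was at 8.60 FPKM in Msx1-/- and 0.527 FPKM in Msx1+/- upper molars and at 8.13 FPKM in Msx1-/- and 0.893 FPKM in Msx1+/- lower molars. Its fold differences were 16.3 and 9.11, and its log2 differences 2.65 and 2.27. Ncam1 was the most abundant of the 10 genes in either Msx1+/- library and differed little by genotype, with 23.1 FPKM in Msx1-/- and 18.9 FPKM in Msx1+/- upper molars and 23.1 FPKM in Msx1-/- and 20.5 FPKM in Msx1+/- lower molars. Its differences of 0.28 and 0.17 were under the threshold by a wide margin. The value nearest below the threshold among the 10 genes was that of Cbln2 in lower molars (0.58).

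**Figure D2:**
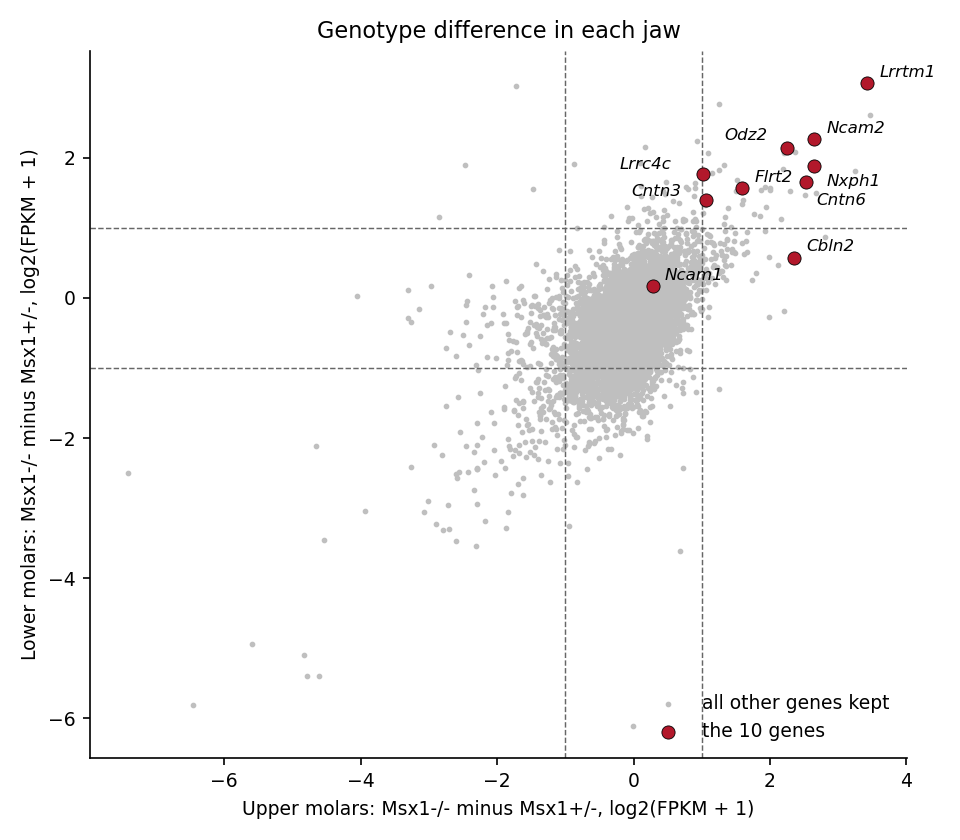
Msx1-/- minus Msx1+/- difference in log2(FPKM + 1) in upper molars (horizontal) and lower molars (vertical) for all genes kept (grey) and the 10 genes (red), with dashed lines at a difference of 1 in size. Of the red points 8 lie in the upper right field, Cbln2 lies right of it below the horizontal line (2.35 and 0.58), and Ncam1 lies in the cloud (0.28 and 0.17).

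The Ncam genes have more than 1 transcript entry in the tables, and the share of each entry within its gene was not used to choose the genes. NCAM1 is known to be made in transmembrane forms and a lipid-anchored form by alternative splicing. The 6184-base entry of Ncam1 held 72.8% of the summed FPKM in Msx1-/- and 77.8% in Msx1+/- upper molars and 75.4% in Msx1-/- and 75.7% in Msx1+/- lower molars. The 6985-base entry held 25.8% in Msx1-/- and 19.95% in Msx1+/- upper molars and 22.2% in Msx1-/- and 22.2% in Msx1+/- lower molars. The 4885-base entry held between 1.31% and 2.43%. The order of the entries was thus the same in every library. For Ncam2 the 4893-base entry held 75.3% in Msx1-/- and 79.7% in Msx1+/- upper molars and 66.9% in Msx1-/- and 62.8% in Msx1+/- lower molars. Its 3565-base entry held the rest, and both entries were higher in Msx1-/- in each jaw, by 2.40 and 2.04 for the longer and by 1.495 and 1.47 for the shorter. The shares are the authors' estimates from overlapping exons and have no error here.

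**Figure D3:**
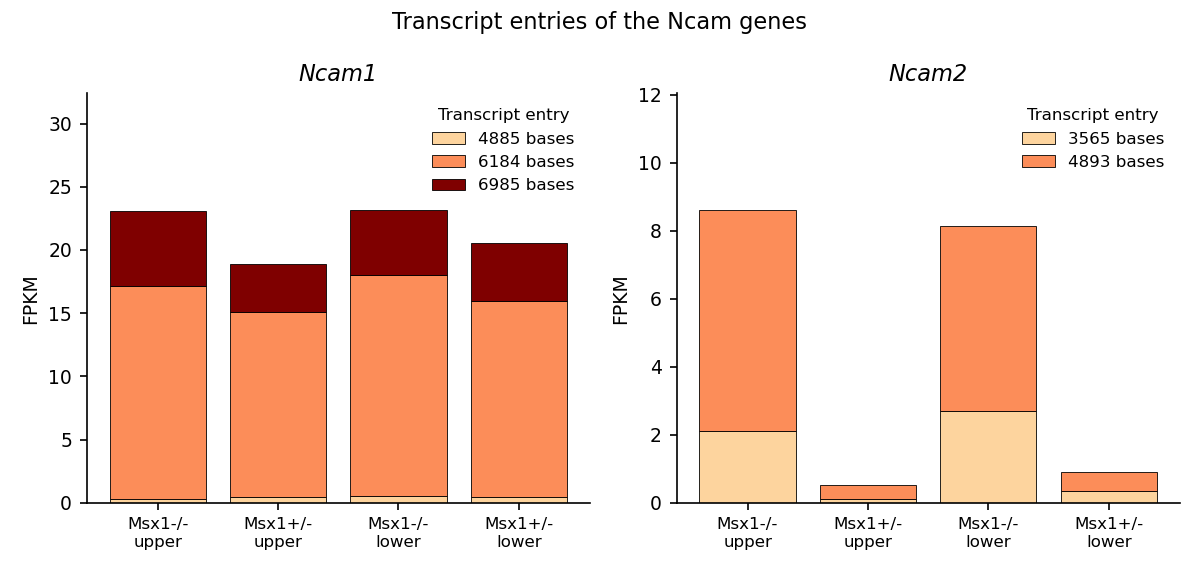
FPKM of the transcript entries of Ncam1 (left) and Ncam2 (right) in each library, stacked so that a bar's height is the summed FPKM of the gene. Ncam1 bars range from 18.9 to 23.1 FPKM, with the 6184-base entry the main part of each, and Ncam2 bars are at 8.60 and 8.13 FPKM in Msx1-/- against 0.527 and 0.893 FPKM in Msx1+/-.

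Both Msx1-/- libraries stood above both Msx1+/- libraries for all 10 genes, as they did for 9.52% of all genes kept. For 7 of the 10 the lowest Msx1-/- value was at least 1 above the highest Msx1+/- value, which held for 0.256% of all genes. That distance was 2.27 for Ncam2, 2.13 for Lrrtm1 and 1.88 for Odz2, and it fell short of 1 for Cntn3 (0.95), Cbln2 (0.58) and Ncam1 (0.16). In Msx1+/- upper molars 5 of the 10 genes were under 1 FPKM, and in Msx1+/- lower molars 3 were. In the Msx1-/- libraries Cbln2 in lower molars was the 1 such value. For genes near or under 1 FPKM in Msx1+/- the log2(FPKM + 1) scale understates the change, and such genes passed the filter through the Msx1-/- libraries.

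Summed depth over transcripts was 264 to 410 megabases per library, lowest in Msx1-/- lower molars, and 10061 to 10562 genes reached 1 FPKM. The median over all genes kept was a difference of -0.03 for upper and -0.39 for lower molars. Rescaling by median of ratios brought these medians to 0.00 and 0.01. The 8 genes higher in both jaws were the same 8 after that rescaling and after rescaling to equal upper quartiles or to equal totals. Among all genes the split of higher and lower in both jaws was 42 to 168 as deposited and 75 to 121 after rescaling by median of ratios. Relative to the median of all genes, the lower molar difference was 3.46 for Lrrtm1, 0.96 for Cbln2 and 0.55 for Ncam1.

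The comparison of upper with lower molars was not itself used to choose the genes. It rests on the same 4 libraries, however, and is not free of that choice. Cbln2 passed the filter through the Msx1-/- upper library, which also makes its difference between the jaws. The low Msx1+/- upper value of Nxph1 enters both its genotype and its jaw difference. The counts here and from the limma fit below are therefore a description. In Msx1-/- molars 1 of the 10 genes differed between the jaws by at least 1, where 3.62% of all genes did, and in Msx1+/- molars 2 did, where 1.7% of all genes did. The libraries were not level between the jaws. The median upper minus lower difference over all genes kept was 0.27 in Msx1-/- and -0.08 in Msx1+/- molars. In Msx1-/- molars 337 genes were higher and 44 lower in upper molars by at least 1. Cbln2 was higher in upper than in lower Msx1-/- molars (4.98 and 0.910 FPKM), at a difference of 1.65. Lrrtm1 was lower in upper than in lower Msx1+/- molars (2.71 and 8.06 FPKM), at -1.29, and leaned the same way in Msx1-/- molars at -0.94. Nxph1 was lower in upper Msx1+/- molars too (0.436 and 2.13 FPKM), at -1.12, and stood at -0.37 in Msx1-/- molars. The other 7 genes differed by less than 1 between the jaws in both genotypes. After each of the 3 rescalings Lrrtm1 passed the threshold between the jaws in Msx1-/- molars as well, at -1.21 to -1.28.

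A limma model over the 4 libraries with jaw and genotype as terms called 0.807% of all genes between the jaws at an adjusted p under 0.05, and 0 of the 10 genes. At an unadjusted p under 0.05, 3 of the 10 passed, where 5.23% of all genes did. They were Cbln2 (0.76, limma adjusted p = 0.0811), Lrrtm1 (-1.11, limma adjusted p = 0.13) and Nxph1 (-0.75, limma adjusted p = 0.402), where the value is upper minus lower over both genotypes. The fit has 1 residual degree of freedom, and for Cbln2 the genotypes did not share a direction, with -0.12 in Msx1+/- molars. The genotype difference itself was 1.77 larger in upper than in lower molars for Cbln2. For the other 9 genes the jaws differed in it by less than 1, between -0.76 for Lrrc4c and 0.87 for Cntn6, and there is no replicate to test it.

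The closest relatives of the 10 genes were looked at by family. Of 20 paralogs, 12 were kept, 8 were below the filter, 0 were higher and 1 was lower in both jaws, where 0.399% of all genes kept were higher and 1.59% were lower in both. The count of 0 is near the share of all genes, and Odz1 was higher in both jaws after each of the 3 rescalings. The paralogs had a median of 0.26 (upper) and -0.50 (lower), against -0.03 and -0.39 for all genes. The paralog that was lower was Cbln1, the cerebellin known from synapses of the cerebellum. It was at 0.909 FPKM in Msx1-/- and 10.2 FPKM in Msx1+/- upper molars and at 0.446 FPKM in Msx1-/- and 7.10 FPKM in Msx1+/- lower molars, so Cbln1 and Cbln2 stood on opposite sides in upper molars. Its differences were -2.55 and -2.49. Cbln3 and Cbln4 were under 1 FPKM in every library.

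Among the teneurins, Odz1 was nearest to Odz2. It was at 2.40 FPKM in Msx1-/- and 0.357 FPKM in Msx1+/- upper molars and at 1.89 FPKM in Msx1-/- and 0.699 FPKM in Msx1+/- lower molars. Its differences were 1.33 and 0.76. Odz3, the most abundant teneurin, differed by 0.49 and 0.72, and Odz4 by -0.10 and -0.67. Flrt3, known for cell sorting in early embryos, was at 28.4 FPKM in Msx1-/- and 10.6 FPKM in Msx1+/- upper molars and at 23.2 FPKM in Msx1-/- and 16.5 FPKM in Msx1+/- lower molars, which is higher in upper molars alone (1.34 and 0.47). Of the other Lrrtm genes, Lrrtm4 was at 9.10 FPKM in Msx1-/- and 7.79 FPKM in Msx1+/- upper molars and at 2.71 FPKM in Msx1-/- and 5.62 FPKM in Msx1+/- lower molars. Its differences of 0.20 and -0.84 set it apart from Lrrtm1. Nxph2, Nxph3 and Nxph4 were at most 0.249 FPKM in any library.

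**Figure D4:**
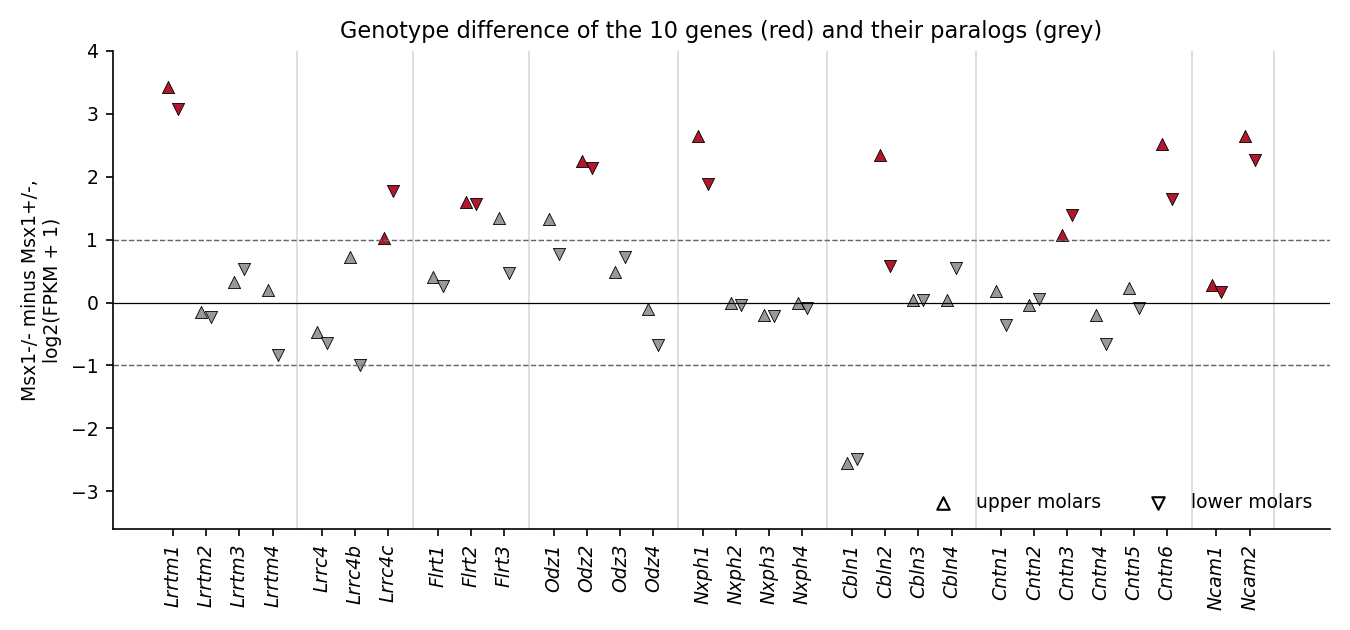
Msx1-/- minus Msx1+/- difference in log2(FPKM + 1) for the 10 genes (red) and their paralogs (grey), by family, with upward triangles for upper and downward triangles for lower molars and dashed lines at 1 in size. In most families the red points stand above the grey ones, which the choice of the 10 genes on this contrast favours. Cbln1 lies far below the others (-2.55 and -2.49).

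The contactin genes Cntn3, Cntn6 and Cntn4 follow each other on chromosome 6 with Chl1, another adhesion gene, between the first 2. Cntn3 lies at 102113300 to 102414661 and Cntn6 at 104443038 to 104813399 (mm9), and Cntn4 starts 814 kb past Cntn6. Cntn4 was at 6.03 FPKM in Msx1-/- and 7.07 FPKM in Msx1+/- upper molars and at 4.18 FPKM in Msx1-/- and 7.16 FPKM in Msx1+/- lower molars. Its differences of -0.20 and -0.65 have the opposite sign to those of Cntn3 and Cntn6. Chl1 was at most 0.122 FPKM in any library. Over all 10 loci, the nearest gene on either side was 19 genes in all, of which 7 were kept. Of these 7, 0 differed by 1 or more in either jaw (range -0.73 to 0.42). Of all 10535 genes kept, 113 were higher and 344 lower in upper molars, and 91 and 992 in lower molars. A count of 0 among 7 genes is near such shares. Of the 20 gaps to the nearest gene, 11 were over 1000 kb.

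Chromosome 6 holds 4 of the 10 genes and 4.67% of all genes kept. Of the 42 genes higher in both jaws, 4 lie on chromosome 6, and these are the same 4. The 34 genes higher in both jaws that are not among the 10 all lie elsewhere. The 10 genes also tended to have wide loci. Their median locus span in the tables was 298 kb, against 22.4 kb over all genes kept, and 6 of the 10 spanned at least 200 kb. Lrrtm1 and Cbln2 had the narrowest loci, with 2.80 and 5.24 kb. These spans are those of the deposited entries. The RefSeq genes of build GRCm38.p6 span 30.7 kb for Lrrtm1, 7.22 kb for Cbln2, 1314 kb for Lrrc4c (164 kb in the tables) and 1230.4 kb for Odz2. Over all 10501 genes with a single locus, the rank correlation of span and genotype difference was weak (Spearman rho of -0.06 in upper and 0.06 in lower molars). Genes are not independent, and rho says little of the few genes called. Of the other genes with a locus of at least 200 kb, 1.93% were higher and 2.36% lower in both jaws. Over all genes kept these shares were 0.399% and 1.59%. Transcript GC content was computed from GENCODE vM21 transcripts for 98.7% of genes. It had a median of 44.3% in the 10 genes and 50.3% over all genes, and rho with the difference was -0.01 and 0.06. With the 10 genes included, 1.2% of genes under 40% GC and 0.193% of those from 56% GC were higher in both jaws. Lower in both jaws were 0% and 2.6%. The part of span or GC in the levels of the 10 genes was not tested.

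**Figure D5:**
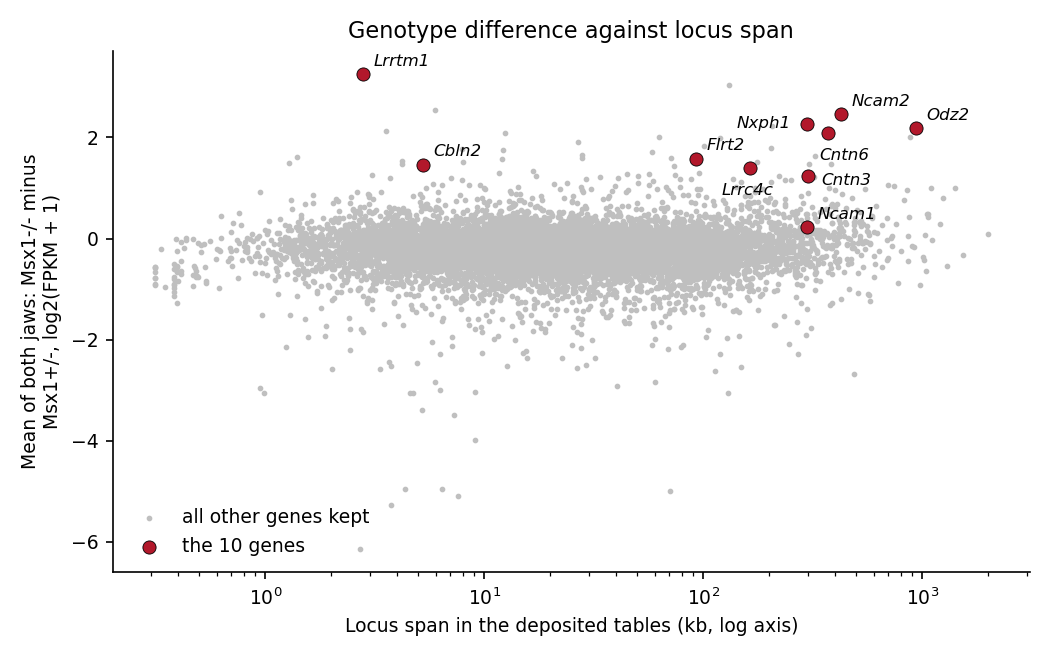
Mean of the genotype differences of both jaws, Msx1-/- minus Msx1+/- in log2(FPKM + 1), against locus span in kb (log axis) for all genes kept with a single locus (grey) and the 10 genes (red). Most red points lie at the right, between 93.0 kb for Flrt2 and 938 kb for Odz2, while Lrrtm1 and Cbln2 lie at the left with 2.80 and 5.24 kb.

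Known binding partners of these proteins were counted in the same way. Of 24 partner genes, 14 were kept, and on the deposited scale 0 were higher and 2 were lower in both jaws. Over all genes kept, 0.399% were higher and 1.59% were lower in both, and a count of 0 among 14 genes is near the first share. The partners had medians of -0.15 and -0.72, against -0.03 and -0.39 over all genes. Unc5b, a netrin receptor of the family that FLRT proteins bind, was at 3.38 FPKM in Msx1-/- and 20.5 FPKM in Msx1+/- upper molars and at 2.37 FPKM in Msx1-/- and 13.4 FPKM in Msx1+/- lower molars (-2.30 and -2.09). Unc5d, the known receptor of FLRT2, was lower in lower molars alone (-0.87 and -1.39). The other gene lower in both jaws was Notch1, which encodes a receptor reported to bind contactin 6 (-1.37 and -1.72).

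Of 70 other adhesion genes of synapses, 33 were kept, 0 were higher and 1 was lower in both jaws, near the 0.399% and 1.59% of all genes. Their medians were 0.05 and -0.24, against -0.03 and -0.39 over all genes. The lower gene was Pvrl1, which encodes nectin-1, at 1.88 FPKM in Msx1-/- and 5.98 FPKM in Msx1+/- upper molars and at 0.639 FPKM in Msx1-/- and 2.52 FPKM in Msx1+/- lower molars, and it was not counted in both jaws after any of the 3 rescalings. Ntrk3 (-1.80 and -0.76) and Sdk1 (-1.70 and -0.13) were lower in upper molars alone. Lingo2, a leucine-rich repeat gene, was higher in upper molars alone (1.05 and 0.55). Of 30 genes for synaptic vesicles, scaffolds and transmitter receptors, 11 were kept, 0 were higher and 1 was lower in both jaws, with medians of -0.14 and -0.47. That gene was Syn1 (-3.26 and -2.41), whose locus overlaps that of Timp1 (-2.80 and -3.31), and reads of overlapping genes were not told apart by strand as far as the labels say. The 8 genes of the REST repressor complex were all kept and 0 were higher or lower in both jaws, with medians of -0.20 and -0.47.

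Most markers of nerve cells were near 0. Of 15 neuron markers, 13 or 14 were under 1 FPKM in each library, and the defining genes Tubb3, Elavl3, Elavl4, Stmn2, Snap25 and Syt1 were at most 0.753 FPKM. Their summed level was 21.7 FPKM in Msx1-/- and 13.3 FPKM in Msx1+/- upper molars and 9.96 FPKM in Msx1-/- and 8.07 FPKM in Msx1+/- lower molars, with Gap43 the main part in upper molars. The 2 markers kept were Gap43 and Nefl. Gap43 was at 18.5 FPKM in Msx1-/- and 8.996 FPKM in Msx1+/- upper molars and at 3.91 FPKM in Msx1-/- and 3.54 FPKM in Msx1+/- lower molars, with differences of 0.96 and 0.11. Nefl was at 0.550 FPKM in Msx1-/- and 0.658 FPKM in Msx1+/- upper molars and at 3.52 FPKM in Msx1-/- and 0.829 FPKM in Msx1+/- lower molars, with differences of -0.10 and 1.31, and so was higher in lower molars alone. The 8 glia markers summed to 3.37 FPKM in Msx1-/- and 3.59 FPKM in Msx1+/- upper molars and to 1.03 FPKM in Msx1-/- and 2.46 FPKM in Msx1+/- lower molars. The 10 skeletal muscle markers summed to 4.44 (Msx1-/-) and 4.82 FPKM (Msx1+/-) in upper molars. In lower molars they summed to 5.05 and 6.59 FPKM. The 2 kept were Chrna1 (-0.35 and -0.45) and Tnnt1 (-0.17 and -0.05). Myod1 and Myog were at most 0.0427 FPKM. Tnnc2, under 1 FPKM in every library, leaned up in Msx1-/- (0.52 and 0.55). Of the markers 0 were higher or lower in both jaws, near the 0.399% and 1.59% of all genes kept.

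Some other marker lists differed between the genotypes in their summed level. Over all genes kept, 0.399% were higher and 1.59% were lower in both jaws, and a count of 0 in a short list is near those shares. The 12 epithelial markers, a tissue that the laser capture was meant to leave out, summed to 50.2 FPKM in Msx1-/- and 29.0 FPKM in Msx1+/- upper molars and to 66.6 FPKM in Msx1-/- and 45.6 FPKM in Msx1+/- lower molars. Of them 7 were kept and Krt15 was higher in both jaws, with Krt5 joining it after each of the 3 rescalings, while Cdh1 and Shh were at most 0.142 FPKM. The 7 cartilage markers summed to 14.1 FPKM in Msx1-/- and 6.71 FPKM in Msx1+/- upper molars and to 21.1 FPKM in Msx1-/- and 5.58 FPKM in Msx1+/- lower molars. In each library 4 of the 7 were under 1 FPKM, with Acan at most 0.0477 FPKM. The 3 kept were Col2a1, Sox9 and Hapln1, of which Hapln1 was higher in both jaws. The 8 macrophage markers summed to 28.2 FPKM in Msx1-/- and 19.4 FPKM in Msx1+/- upper molars and to 34.1 FPKM in Msx1-/- and 24.5 FPKM in Msx1+/- lower molars, with 0 higher in both jaws. Of 8 osteoblast markers 6 were kept, with Ibsp and Ifitm5 higher and Runx2 and Spp1 lower in both jaws. The 8 endothelial markers were all kept, and 0 were higher or lower in both jaws. The part of these cell types in the levels of the 10 genes was not tested.

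The genes whose pattern over the 4 libraries was most like the mean pattern of the 10 were found by Euclidean distance between log2(FPKM + 1) values centred on each gene's mean. In order of distance they were Cxcl14, Egfl6, Pcp4, Vstm2a and Sfrp2, at 0.186 to 0.355. The chemokine gene Cxcl14 was at 11.8 FPKM in Msx1-/- and 2.19 FPKM in Msx1+/- upper molars and at 13.2 FPKM in Msx1-/- and 3.86 FPKM in Msx1+/- lower molars. The secreted Wnt antagonist gene Sfrp2 was by far the most abundant of the 5, with 316 FPKM in Msx1-/- and 111 FPKM in Msx1+/- upper molars and 359 FPKM in Msx1-/- and 124 FPKM in Msx1+/- lower molars. Of the 10 genes themselves, Flrt2 was closest to their mean pattern at 0.307 and Lrrtm1 was farthest at 1.69, followed by Ncam1 at 1.60 and Cbln2 at 1.26. With 4 libraries, many patterns of a genotype difference look alike.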

How the data were processed

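The submitters' processing notes name mm9, Bowtie 0.12.7 and TopHat 1.4.1. Per the file headers, the authors deposited an FPKM value and a coverage signal (mean read depth per transcript base) for 28107 RefSeq transcript entries in each of 4 libraries, in the column layout of Cufflinks. Per the labels, cDNA was amplified with a NuGEN kit from laser-captured tissue, and strand is not mentioned. FPKM values were summed per gene name. Genes with a failed estimate (66) and names of small RNAs (718) were left out, and those that averaged 1 FPKM or more over the 4 libraries were kept (10535). Aligned bases are coverage times transcript length. The number of reads behind a value is unknown, so no counting interval is given.

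Differences are of log2(FPKM + 1), counted at 1 or more, with 1 library per group and no test between genotypes. Jaws were also compared with limma 3.58.1 (R 4.3.3; trend, genotype as a term, Benjamini-Hochberg over all genes kept), which was tested on simulated data. The 10 genes, the lists of paralogs, partners and markers, and the thresholds were chosen with earlier results of these data known. Genes of a list named in the text are those with the largest mean differences (up to 4), the most abundant for cell types (2), paralogs, genes at overlapping loci and the 5 genes most like the mean pattern. Flanking genes, defining markers at or near 0, and single genes given to describe a list, were added after their values were seen. All list symbols matched the tables. Alternatives tried were a pseudocount of 0.1 or 5, no filter or an average of 5 FPKM or more, 3 rescalings, the most abundant transcript in place of the sum, and a threshold of 1.5. Deposited coordinates are mm9 with 1 added to the start. RefSeq promoters are GRCm38.p6, and no coordinate was converted. Odz2 was matched to its RefSeq symbol Tenm2. Fgfr1 and Gria1, of the lists, had a failed estimate and were left out. Single values of some binding partners are not reported here.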

Additional observations from a re-analysis of the deposited data

How the results depend on the processing

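The counts of genes higher in Msx1-/- (9 in upper molars, 8 in lower molars and 8 in both) stayed at those values with no filter, with the most abundant transcript and under the 3 rescalings. With a pseudocount of 0.1 they were 9, 9 and 9, with a pseudocount of 5 they were 6, 6 and 6, and with a threshold of 1.5 they were 7, 7 and 6. With a filter at 5 FPKM only 5 of the 10 genes were kept, and the counts were 4, 4 and 4. The 3 genes apart between the jaws in either genotype became 0 with a pseudocount of 5 and 1 with a threshold of 1.5. limma called 0 of the 10 genes between the jaws in the main setting and 1, Cbln2, with a pseudocount of 5 (limma adjusted p = 0.00538; the lowest adjusted p of any of the 10 genes ran from 0.0622 to 0.99 in the other alternatives). It called 85 genes between the jaws in all, against 4 to 6 after rescaling, 29 with a filter at 5 FPKM and, by limma, 0 with no filter (947 genes at an unadjusted p under 0.05). Among all genes kept, those higher in both jaws numbered 42, against 75 to 82 after rescaling, 87 with a pseudocount of 0.1, 14 with a pseudocount of 5, 24 with a filter at 5 FPKM and 18 with a threshold of 1.5. Those lower in both jaws numbered 168, against 280, 66, 106 and 72 in the last 4 of these settings and 113 to 121 after rescaling. The mean genotype difference kept its sign and its side of 1 in 72 of 75 alternatives for single genes. The 3 others were Cbln2 (0.55), Cntn3 (0.55) and Lrrc4c (0.52) with a pseudocount of 5. A larger pseudocount shrinks the difference of weak genes by construction. No paired analysis was possible because the labels give no replicate numbers and each group is 1 library; the limma fit does compare the jaws within genotype.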

Other observations

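Of 467 other genes kept with a locus of at least 200 kb, 9 (1.93%) were higher and 11 (2.36%) were lower in both jaws, where 0.399% of all genes kept were higher and 1.59% were lower in both. The 9 genes, chosen after their values were seen, were Pcdh9, Sorcs2, Ntrk2, Epha3, Tox, Cnksr2, Sema3d, Corin and Meis2. Pcdh9, which encodes a protocadherin of nerve cells, was at 3.87 FPKM in Msx1-/- and 1.05 FPKM in Msx1+/- upper molars and at 10.6 FPKM in Msx1-/- and 0.690 FPKM in Msx1+/- lower molars. Ntrk2, the receptor gene for the neurotrophin BDNF, was at 14.0 FPKM in Msx1-/- and 2.89 FPKM in Msx1+/- upper molars and at 7.88 FPKM in Msx1-/- and 2.60 FPKM in Msx1+/- lower molars. The bin was chosen after the spans of the 10 genes were known, and no test was made.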
